A study of Mus musculus with 9 samples.

Results

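Transcripts of 10 interferon-stimulated effector genes (Ifi27, Rtp4, Ifi35, Oasl2, Oas2, Isg20, Isg15, Bst2, Ifit1 and Ifit2) were followed in mouse embryonic stem cells (mESCs) that lack RING1B or carry it in a catalytically inactive form. They are 10 of 21713 genes tested on the arrays. All were measured, and 8 of the 10 had a probe well above background on every array of at least one group (Oas2 and Ifit1 did not). The genes were chosen from differences already seen on these same arrays, so their values are given as a description. Differences and standard errors (SE) come from a limma fit across all genes, and that fit's calls are counted beside the share called over all genes and support nothing about the 10 genes. RING1B, encoded by Rnf2, is the main E3 ligase of Polycomb repressive complex 1 for histone H2A in mESCs.

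The KO group was Ring1B−/− E14Tg2a cells, in which exon 3 of the gene is deleted. The I53A group was Ring1B I53A/I53A cells of the same origin, whose RING1B has alanine in place of an isoleucine needed for ligase activity. The WT group was the parental E14Tg2a line. All were grown in serum with LIF and each group had 3 single-colour arrays (n = 3 for every group value below, given as mean ± SD of quantile-normalised log2 signal). The sources used here describe no second, independently derived line of either mutant for these arrays. The methods call the 3 samples of a group biological replicates and do not say whether they were separate cultures, and a label of all 3 KO samples carries the replicate number 1 although their titles run from 1 to 3. A p-value therefore measures only the spread between these samples and a difference may belong to a line. KO, I53A and WT arrays stood in different columns of the slides, so an effect of column cannot be told apart from the group.

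Interferons are secreted proteins that bind receptors on the cell surface and act through JAK kinases, STAT proteins and interferon regulatory factors. Those factors bind short elements in target promoters, and the induced genes restrict viruses by destroying RNA, blocking translation or holding particles at the membrane. Pluripotent cells are known for a weak response to interferon and for low levels of many of these genes.

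The element named ISRE, bound by STAT and interferon regulatory factor complexes, was searched as GAAANNGAAA on both strands, with overlapping matches counted, in RefSeq promoter windows of 300 bases (GRCm38.p6, 250 before to 50 after a start). Windows matched 7 of the 10 genes, and 3 of these 7 held the element (Isg15, Bst2 and Ifit1), against 38.9% of 126 other interferon genes of the lists below, 3.98% of the 15337 tested genes with a window and 3.44% of all 32851 windows. The element named GAS, bound by STAT dimers, was searched as TTCNNNGAA, which reads alike on both strands, and was present in windows of 4 of the 7 genes, against 20.6% of the other interferon genes and 8.98% of the tested genes. The 250 bases before the start are shown for all 7 genes, so that promoters with and without the first element can be set beside the signals described below. Windows of Ifi35, Oasl2, Isg20 and Ifit2 held no match to it. Capitals mark the matches. The Isg15 stretch is chr4:156200819-156201068 (minus strand) with 3 overlapping matches that begin 78 bases before the start. The Bst2 stretch is chr8:71537473-71537722 (minus strand) with 2 overlapping matches that begin 130 bases before the start. The Ifit1 stretch is chr19:34640639-34640888 (plus strand) with matches on the opposite strand, 104 and 85 bases before the start. The others are on the plus strand, Ifi35 at chr11:101448162-101448411, Oasl2 at chr5:114896684-114896933, Ifit2 at chr19:34550444-34550693 and chr19:34550838-34551087 for its 2 starts, and Isg20 at chr7:78913515-78913764, the window of the start to which its brighter probe was assigned.
Isg15: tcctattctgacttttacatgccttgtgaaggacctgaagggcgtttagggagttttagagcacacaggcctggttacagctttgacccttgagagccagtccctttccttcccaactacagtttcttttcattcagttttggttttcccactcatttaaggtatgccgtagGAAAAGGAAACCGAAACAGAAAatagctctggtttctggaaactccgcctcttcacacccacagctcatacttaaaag
Bst2: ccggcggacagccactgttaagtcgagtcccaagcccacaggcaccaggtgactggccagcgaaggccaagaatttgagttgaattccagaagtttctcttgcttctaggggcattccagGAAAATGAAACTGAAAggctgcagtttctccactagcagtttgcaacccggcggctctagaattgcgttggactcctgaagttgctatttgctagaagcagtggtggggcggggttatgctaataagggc
Ifit1: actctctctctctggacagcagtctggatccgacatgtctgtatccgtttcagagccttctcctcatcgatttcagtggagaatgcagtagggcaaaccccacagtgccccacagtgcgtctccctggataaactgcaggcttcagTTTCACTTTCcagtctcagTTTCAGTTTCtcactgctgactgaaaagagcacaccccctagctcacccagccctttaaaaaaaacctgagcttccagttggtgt
Ifi35: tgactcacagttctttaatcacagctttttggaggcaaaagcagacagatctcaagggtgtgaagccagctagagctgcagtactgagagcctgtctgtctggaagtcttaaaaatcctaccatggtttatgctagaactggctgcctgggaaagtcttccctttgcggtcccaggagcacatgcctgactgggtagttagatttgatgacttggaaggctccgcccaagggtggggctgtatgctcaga
Oasl2: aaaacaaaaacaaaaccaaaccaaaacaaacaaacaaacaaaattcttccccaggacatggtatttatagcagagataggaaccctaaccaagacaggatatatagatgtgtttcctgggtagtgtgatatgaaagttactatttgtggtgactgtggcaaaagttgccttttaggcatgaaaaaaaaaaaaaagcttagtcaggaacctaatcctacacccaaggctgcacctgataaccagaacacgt
Isg20: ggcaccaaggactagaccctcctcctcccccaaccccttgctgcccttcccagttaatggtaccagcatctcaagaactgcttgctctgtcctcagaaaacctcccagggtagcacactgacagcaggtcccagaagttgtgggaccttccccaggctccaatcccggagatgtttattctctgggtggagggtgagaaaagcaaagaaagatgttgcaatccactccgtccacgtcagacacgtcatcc
Ifit2 first start: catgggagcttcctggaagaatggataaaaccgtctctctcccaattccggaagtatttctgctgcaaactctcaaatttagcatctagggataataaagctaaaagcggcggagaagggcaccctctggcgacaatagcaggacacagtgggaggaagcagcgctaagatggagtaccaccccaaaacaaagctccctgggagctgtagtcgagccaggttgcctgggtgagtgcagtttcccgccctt
Ifit2 second start: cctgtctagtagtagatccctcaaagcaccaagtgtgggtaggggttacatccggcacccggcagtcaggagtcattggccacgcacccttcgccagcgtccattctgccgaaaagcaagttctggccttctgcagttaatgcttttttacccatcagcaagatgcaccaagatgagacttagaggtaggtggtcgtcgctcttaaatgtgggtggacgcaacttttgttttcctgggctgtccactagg
The 3 genes with a match in the window (Isg15, Bst2 and Ifit1) were not called in any comparison. Of the 4 without one, Ifi35, Oasl2 and Isg20 were called in KO cells and Ifit2 was not. Absence of a match thus did not go with a call in every gene. Ifi27, Rtp4 and Oas2, all called in KO cells, had no window and were not searched. The Oasl2 window covered 1 of the 2 starts assigned to its probe. Whether called genes lack the element therefore cannot be read from these windows. A match is a run of letters and not a measured site, and the matches were set beside the calls after the values were known.

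In KO cells 6 of the 10 genes were called higher than in WT (Ifi27, Rtp4, Ifi35, Oasl2, Oas2 and Isg20), meaning a limma adjusted p under 0.05 and a change over 2-fold, and none was called lower. Over all genes 2.92% were called higher and 1.17% lower. In I53A cells none of the 10 was called higher or lower than in WT, where the shares over all genes were 0.29% and 0.111%. KO cells set against I53A cells gave the same 6 genes as higher and none as lower, with shares over all genes of 1.06% and 0.405%. Because the members were chosen with these contrasts in view, nothing is read from the counts. The median log2 difference of the 10 was 2.15 in KO minus WT (all genes −0.02), 0.41 in I53A minus WT (all genes −0.01) and 1.90 in KO minus I53A (all genes −0.02). KO and I53A were compared with the same WT arrays.

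**Figure D1:**
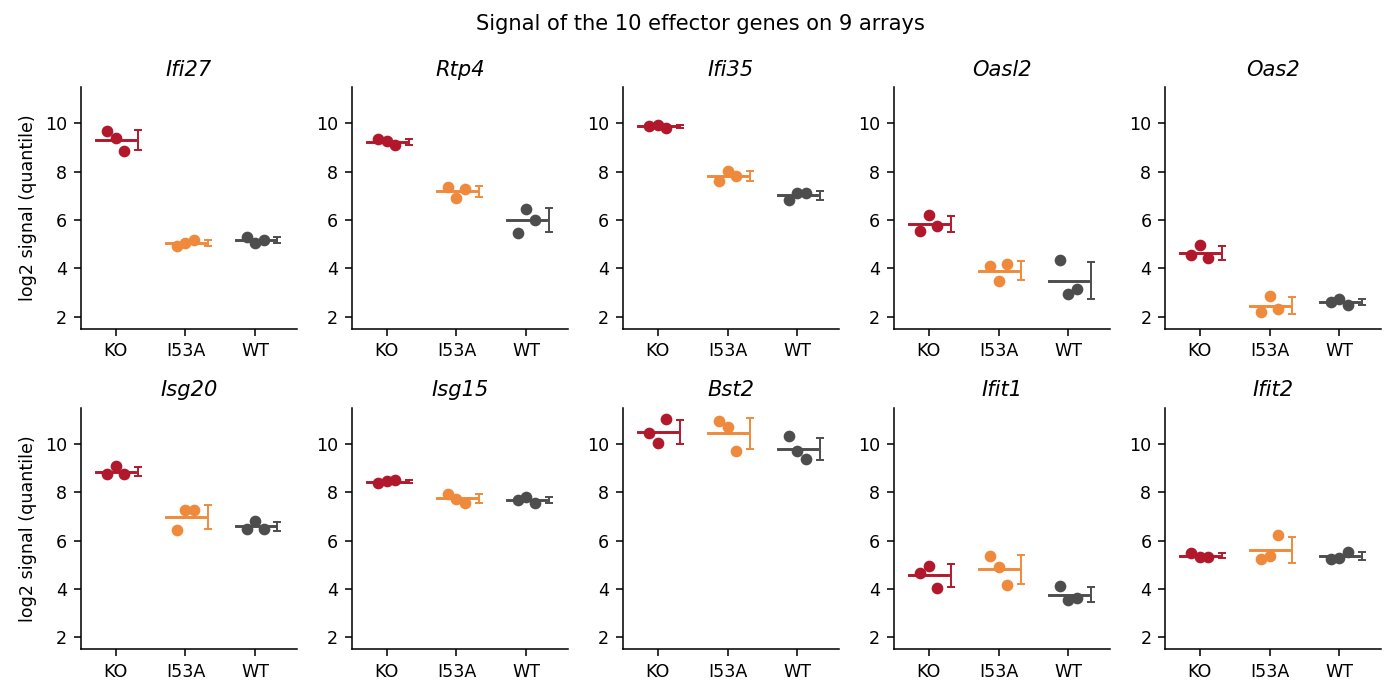
Quantile-normalised log2 signal of each gene's brightest probe (vertical axis) on the 3 KO, 3 I53A and 3 WT arrays. Points are arrays, horizontal lines group means and bars 1 SD, and the KO points of Ifi27, Rtp4, Ifi35, Oasl2, Oas2 and Isg20 all lie above every I53A and WT point.

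Ifi27 (chromosome 12, 103434189 to 103440245) encodes a small membrane protein induced by type I interferon. Its log2 signal was 9.68, 9.40 and 8.88 on the KO arrays, against 4.94, 5.04 and 5.16 in I53A and 5.30, 5.05 and 5.17 in WT. The lowest KO array was well above every other array, while I53A and WT overlapped. KO averaged 9.32 ± 0.41, I53A 5.05 ± 0.11 and WT 5.17 ± 0.13, a 17.7-fold excess of KO over WT (log2 difference 4.14, SE 0.25) with the WT probe above background on 2 of 3 arrays. I53A minus WT was −0.13 (SE 0.25). With background corrected by normexp the KO minus WT difference was smaller, at 2.92, and still called. It had the widest KO difference of the 10 genes. Within 100000 bases, 1 of 6 tested neighbours was called, Asb2 (log2 difference 1.55, limma adjusted p 0.0261), and the related Ifi27l2a had 0.35 (adjusted p 0.62).

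Rtp4 (chromosome 16, 23520219 to 23614222) encodes an interferon-induced protein first known as a chaperone of receptors. It measured 9.34, 9.27 and 9.10 in KO, 7.35, 6.93 and 7.28 in I53A, and 5.48, 6.47 and 6.01 in WT. The 3 groups did not overlap and I53A lay between KO and WT. The KO mean was 9.24 ± 0.13, the I53A mean 7.19 ± 0.22 and the WT mean 5.99 ± 0.49, so that KO exceeded WT 9.5-fold (log2 difference 3.25, SE 0.27). I53A exceeded WT 2.29-fold (1.20, SE 0.27), which was not called on all probes and was called when dim probes were left out. KO exceeded I53A 4.14-fold (2.05, SE 0.27). With normexp KO minus WT was 2.51, also called.

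Ifi35 (chromosome 11, 101448412 to 101458701), whose product binds the interferon-induced protein Nmi, measured 9.91, 9.92 and 9.80 in KO, 7.61, 8.04 and 7.82 in I53A, and 6.81, 7.14 and 7.13 in WT. Here too the groups were separate, with I53A between the others. The means were 9.88 ± 0.07 in KO, 7.83 ± 0.22 in I53A and 7.03 ± 0.18 in WT. KO was 7.22-fold above WT (2.85, SE 0.22) and I53A 1.74-fold above WT (0.80, SE 0.22). Genes of chromosome 11 as a whole had a median difference of 0.26 in KO minus WT and −0.01 in I53A minus WT (1525 genes), and 2 of the 8 tested neighbours of Ifi35 within 100000 bases were called, Rundc1 (1.73, limma adjusted p 0.013) and Rnd2 (1.37, adjusted p 0.0149). The part of the chromosome in the Ifi35 difference was not tested.

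Isg20 (chromosome 7, 78913396 to 78920396), an exonuclease that degrades RNA, had 2 probes that differed. The brighter, assigned in the deposited table to the start at 78913764, measured 8.75, 9.09 and 8.74 in KO, 6.43, 7.29 and 7.25 in I53A, and 6.49, 6.80 and 6.49 in WT. The KO arrays stood apart and I53A and WT overlapped. KO averaged 8.86 ± 0.20 against 6.99 ± 0.49 in I53A and 6.59 ± 0.18 in WT, 4.82-fold above WT (2.27, SE 0.27). The other probe, assigned to 4 starts, measured 6.58, 6.78 and 7.13 in KO, 6.86, 6.45 and 6.39 in I53A, and 6.14, 5.83 and 6.35 in WT, a 1.65-fold excess in KO (0.73, SE 0.25) that was not called. On this probe KO and I53A overlapped (0.26, SE 0.25), so the separation of KO from I53A was seen with 1 of the 2 probes.

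Active members of the oligoadenylate synthetase family make the second messenger that activates RNase L, and proteins of the Oasl branch carry ubiquitin-like domains. Oas2 (chromosome 5, 120730333 to 120749886) measured 4.55, 4.97 and 4.41 in KO, 2.21, 2.85 and 2.33 in I53A, and 2.59, 2.73 and 2.50 in WT. These signals were dim, with 1 KO array and no I53A or WT array above background. A fold given as at least a value sets the bright group's mean against the dim group's mean. Each dim signal is first raised to the lowest signal that counts as above background on its array. For Oas2 this gave KO 1.96-fold over WT and 2.02-fold over I53A. These 2 values are not lower limits, because the KO signal was itself above background on only 1 array. Measured means were 4.64 ± 0.29, 2.46 ± 0.34 and 2.61 ± 0.11 in KO, I53A and WT (KO minus WT 2.04, SE 0.25).

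Oasl2 (chromosome 5, 114896926 to 114912245) measured 5.55, 6.22 and 5.76 in KO, 4.10, 3.46 and 4.17 in I53A, and 4.36, 2.95 and 3.13 in WT. It was above background on all KO arrays and on no other, and was at least 3.44-fold higher in KO than in WT and at least 3.29-fold higher in KO than in I53A. The measured means were 5.84 ± 0.34 in KO, 3.91 ± 0.39 in I53A and 3.48 ± 0.77 in WT. With background corrected by normexp the KO minus WT differences became 0.69 for Oasl2 and 0.38 for Oas2, and neither was called. The Oasl2 call between KO and I53A was lost in 7 of the 9 fits that left out 1 array.

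Along chromosome 5, 11 genes of the Oas and Oasl family were tested, and 4 were called higher in KO than in WT (Oasl2, Oas2, Oas1f and Oas1a) with none lower and none called in I53A. The share called higher in KO than in WT was 2.92% over all genes. Oas1f averaged 7.13 ± 0.36 in KO, 4.17 ± 0.59 in I53A and 4.08 ± 0.10 in WT (KO minus WT 3.05, SE 0.31, limma adjusted p 0.000549). Oas1a averaged 7.20 ± 0.18 in KO, where it was above background on all arrays, against 4.55 ± 0.30 in I53A and 5.01 ± 0.17 in WT, where it was on none, and was at least 4.56-fold higher in KO than in WT (adjusted p 0.000689). Other genes of the family that lie among or next to them were not called in KO against WT. Oas1c had 0.50 (limma adjusted p 0.383). Oas1h (−0.27, adjusted p 0.597) and Oas1d (−0.32, adjusted p 0.557) were above background on every array, and Oasl1, next to Oasl2, had −0.47 (adjusted p 0.38). Oas3 and Oas1g were below background in all 3 groups. Oas1e was called only in KO against I53A (1.38, adjusted p 0.0197), beside 0.88 in KO minus WT (adjusted p 0.0677). The Oas1 genes are close copies, and how far a probe responds to a neighbouring copy was not tested. Within 100000 bases of Oas2, 1 of 7 tested neighbours was called higher in KO than in WT (Oas1f). Another 1, Dtx1, which is outside the family, was called lower (−1.38, limma adjusted p 0.00403).

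**Figure D2:**
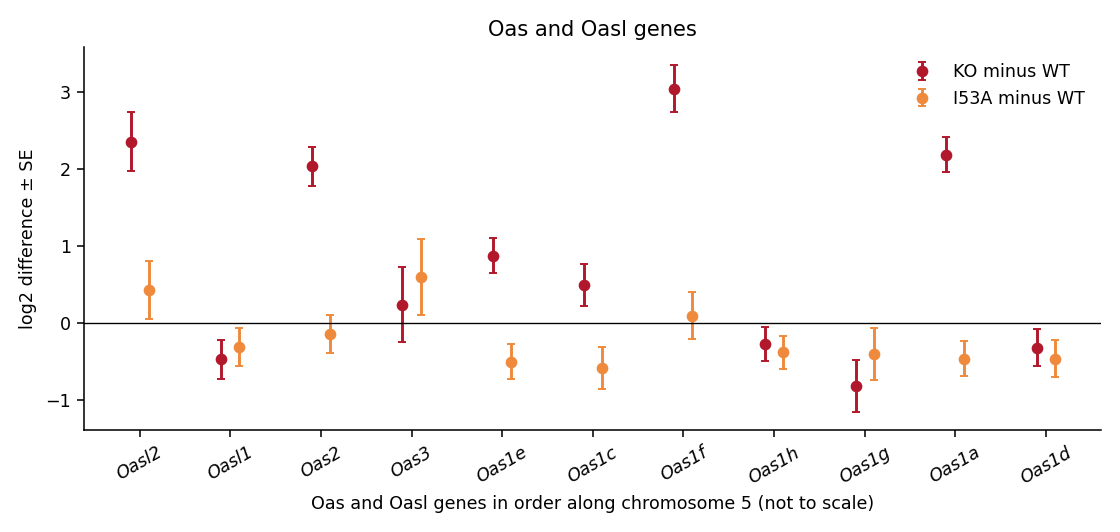
Log2 difference ± SE (vertical axis) of the 11 Oas and Oasl genes in their order along chromosome 5, KO minus WT and I53A minus WT. High KO values at Oasl2, Oas2, Oas1f and Oas1a lie among genes with KO values from −0.82 to 0.88, and the I53A values lie between −0.58 and 0.60.

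The remaining 4 genes were not called and had smaller KO differences. Isg15 (chromosome 4, 156199424 to 156200818), a ubiquitin-like protein joined to other proteins during the antiviral response, measured 8.37, 8.46 and 8.51 in KO, 7.94, 7.72 and 7.58 in I53A, and 7.69, 7.81 and 7.54 in WT. KO lay above both other groups without overlap, by 1.70-fold over WT (0.77, SE 0.21), which is under the 2-fold threshold. A further Isg15 probe, read from the scan files only, measured 5.64, 5.92 and 6.27 in KO, 6.15, 5.89 and 5.62 in I53A, and 5.97, 5.85 and 5.82 in WT, with overlapping groups and a KO minus WT difference of 0.06 (SE 0.25). The small KO difference in Isg15 was thus seen with 1 of its 2 probes.

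Bst2 (chromosome 8, 71534255 to 71537472), the membrane protein tetherin that holds virus particles at the cell surface, measured 10.45, 10.04 and 11.03 in KO, 10.95, 10.69 and 9.71 in I53A, and 10.32, 9.70 and 9.39 in WT. It was well above background on all 9 arrays and the groups overlapped, with similar differences from WT of 0.71 in KO and 0.65 in I53A (SE 0.39 each). Ifit1 and Ifit2, neighbours on chromosome 19 (34640889 to 34650009 and 34550550 to 34576534), belong to a family that binds foreign RNA. Ifit1 was below background on every array, at 4.65, 4.97 and 4.05 in KO, 5.37, 4.91 and 4.18 in I53A, and 4.11, 3.55 and 3.62 in WT, so no fold is given. Ifit2 measured 5.49, 5.31 and 5.33 in KO, 5.23, 5.36 and 6.23 in I53A, and 5.22, 5.30 and 5.54 in WT, with overlapping groups and a KO minus WT difference of 0.03 (SE 0.28). None of the other Ifit genes tested beside them (Ifit3, Ifit3b and Ifit1bl1) was called in KO, at −0.60, −0.25 and 0.06.

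**Figure D3:**
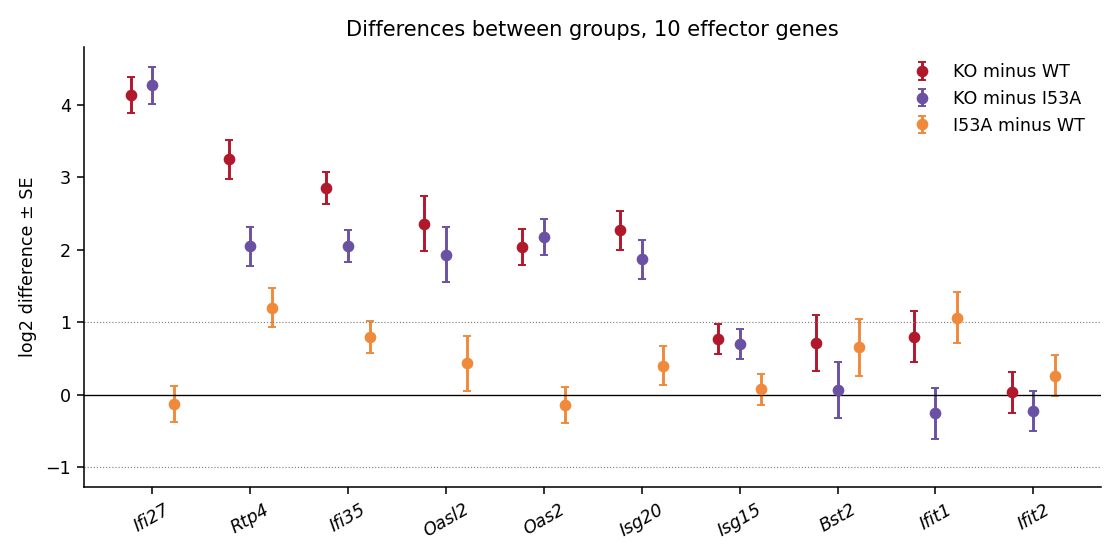
Log2 difference ± SE (vertical axis) between groups for the 10 genes, with dotted lines at 1 and −1. KO minus WT and KO minus I53A are near or above 2 for Ifi27, Rtp4, Ifi35, Oasl2, Oas2 and Isg20, while I53A minus WT stays between −0.14 and 1.20 for all 10.

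Non-overlap of the 3 KO and 3 WT arrays, all KO higher, was found for 7 of the 10 genes (the 6 called and Isg15), and over all genes for 12.2%. For I53A above WT it was found for 3 (Rtp4, Ifi35 and Ifit1), and over all genes for 8.72%. Arrays in the same row of a slide, 1 of each group, gave KO minus WT differences of 3.83 to 4.51 for Ifi27, 2.63 to 3.79 for Rtp4 and 2.66 to 3.11 for Ifi35. For Bst2 they ran from −0.28 to 1.34.

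The 6 called genes had similar profiles over the 9 arrays, with Pearson r of 0.85 to 0.98 among their 15 pairs (median 0.93). This mostly restates the group means, since after each group's mean was taken out r ran from −0.76 to 0.73 with a median of 0.12. Isg15 had r of 0.88 to 0.93 with each of the 6, and Bst2 0.26 to 0.42. The points share arrays and normalisation. Of 12453 other genes, those most like the mean profile of the 8 members above background were an unnamed Ensembl gene (r = 0.993), Rec114 (0.992), Igtp (0.991), Rhox10 (0.991), Ercc4 (0.99), and Calcoco2, Sp140 and Srprb (0.988 each). Igtp belongs to the interferon lists below, and Rec114, Rhox10, Ercc4, Calcoco2 and Sp140 do not. Calcoco2 averaged 14.43 in KO, 11.35 in I53A and 10.10 in WT.

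Around these effectors the wider pathway was measured with 8 lists. Of 154 further interferon genes tested, 15 were called higher in KO than in WT and none lower (9.74%, median log2 difference 0.18). Over all genes 2.92% were called higher and 1.17% lower (median −0.02). In I53A, 1 was called higher and 1 lower than in WT (median 0.06), with 0.29% and 0.111% over all genes. Another 8 calls were higher in KO than in I53A with none lower (median 0.13), with 1.06% and 0.405% over all genes. The same shares stand beside the counts of each list below. No share over all genes is given for counts at an unadjusted p. With normexp 5 of the 154 were called in KO against WT. The calls lost there were those of Gbp3, Irf1, Lgals9, Oas1a, Oas1f, Psmb8, Psmb9, Socs1, Sting1 and Znfx1. Of the 15, 5 lie on chromosome 11 (Irf1, Xaf1, Lgals9, Irgm1 and Igtp), which holds 7.02% of all tested genes and had the KO median of 0.26 given above. Calcoco2 lies there too. The part of the chromosome in these calls was not tested. The lists were drawn up with earlier results of these arrays known.

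Genes at the start of the pathway were mostly dim. Of 21 ligand genes listed 14 were tested, of the interferon alpha, beta, gamma, epsilon, kappa and lambda kinds, and 4 of these were above background on every array of at least one group, while Ifnb1, Ifng, Ifna2, Ifna4 and Ifne were below it on all 9 arrays, where a change was not detectable. None of the 14 was called in any comparison, and none had an unadjusted limma p under 0.05. The brightest, Ifnl3, averaged 6.68 in KO, 7.11 in I53A and 7.15 in WT. None of 5 receptor genes tested (of 6 listed, 2 of them above background on every array of at least one group) was called by limma in KO against WT, where at an unadjusted p under 0.05 there were 2 with a higher and 1 with a lower signal, and Ifngr1, the brightest, averaged 6.19 in KO, 6.78 in I53A and 6.78 in WT.

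Of 20 signalling genes, 2 were called higher in KO. Socs1, a feedback inhibitor of JAK kinases, averaged 6.01 ± 0.24 in KO, 4.65 ± 0.48 in I53A and 3.47 ± 0.47 in WT, and was at least 4.82-fold higher in KO than in WT (limma adjusted p 0.00176). Irf1, a transcription factor, averaged 9.34 ± 0.72 in KO, 8.57 ± 0.50 in I53A and 7.59 ± 0.22 in WT (KO minus WT 1.75, adjusted p 0.0293). The brightest signalling gene, Socs3, had 0.32 in KO minus WT (SE 0.30). Of 18 nucleic acid sensing genes 2 were called higher in KO, both also against I53A. They were Zbp1, a sensor of Z-form nucleic acid (2.35, adjusted p 0.000451), and Sting1, the adaptor of cytosolic DNA sensing (2.57, adjusted p 0.00621). Sting1 was above background on 2 KO arrays and on no I53A or WT array, which limits its difference. Its call against WT was lost with normexp and within slide 1. Adar, the brightest, had 0.57 in KO minus WT (SE 0.22).

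Among 69 other antiviral effectors, 6 were called higher in KO and none lower. Beside Oas1f and Oas1a these were Xaf1, a pro-apoptotic factor (2.65, limma adjusted p 0.00212), the lectin Lgals9 (1.47, 0.0246), the ADP-ribosyltransferase Parp10 (1.46, 0.0185) and the helicase-like Znfx1 (1.32, 0.0218). In I53A the effector Phf11d was lower than WT, at 6.89 ± 0.32 in I53A against 8.36 ± 0.10 in WT (−1.47, adjusted p 0.04), and its KO mean was 8.01 ± 0.27. The brightest gene placed in this list, Aen, had 0.30 in KO minus WT (SE 0.28), and its response to interferon was not measured here.

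None of 4 genes of ISG15 conjugation was called by limma, with 2 at an unadjusted p under 0.05 in KO against WT, and Trim25 had 0.94 in KO minus WT (SE 0.39). Of 14 immunity-related and guanylate-binding GTPases, which attack the vacuoles of intracellular pathogens, 3 were called higher in KO. These were Irgm1 (2.65, limma adjusted p 0.000499), Igtp (2.48, 0.000275) and Gbp3 (1.44, 0.00737). Irgm1 averaged 9.38 ± 0.20 in KO, 7.89 ± 0.45 in I53A and 6.73 ± 0.19 in WT. Of 13 class I presentation genes the immunoproteasome subunits Psmb8 (1.98, adjusted p 0.0135) and Psmb9 (1.37, 0.0176) were called higher in KO. The peptide transporter Tap1 was the 1 gene called higher in I53A, at 7.77 ± 0.14 in I53A against 6.25 ± 0.14 in WT (1.52, adjusted p 0.0204), with 7.0 ± 0.20 in KO (0.75, adjusted p 0.0848). Both I53A calls, Tap1 and Phf11d, were lost when any single I53A or WT array was left out. Of the KO calls, Irf1, Lgals9 and Znfx1 were lost when any single WT array was left out. Without WT 3 the calls of Parp10, Psmb8 and Psmb9 were lost as well, and without WT 1 those of Psmb8 and Psmb9. Leaving out KO 2 lost the calls of Irf1, Lgals9, Parp10, Psmb9 and Znfx1. Leaving out KO 3 lost those of Lgals9, Parp10, Psmb8, Psmb9 and Znfx1, and leaving out KO 1 that of Irf1. Psme1, the brightest class I presentation gene, had 0.62 in KO minus WT (SE 0.22).

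**Figure D4:**
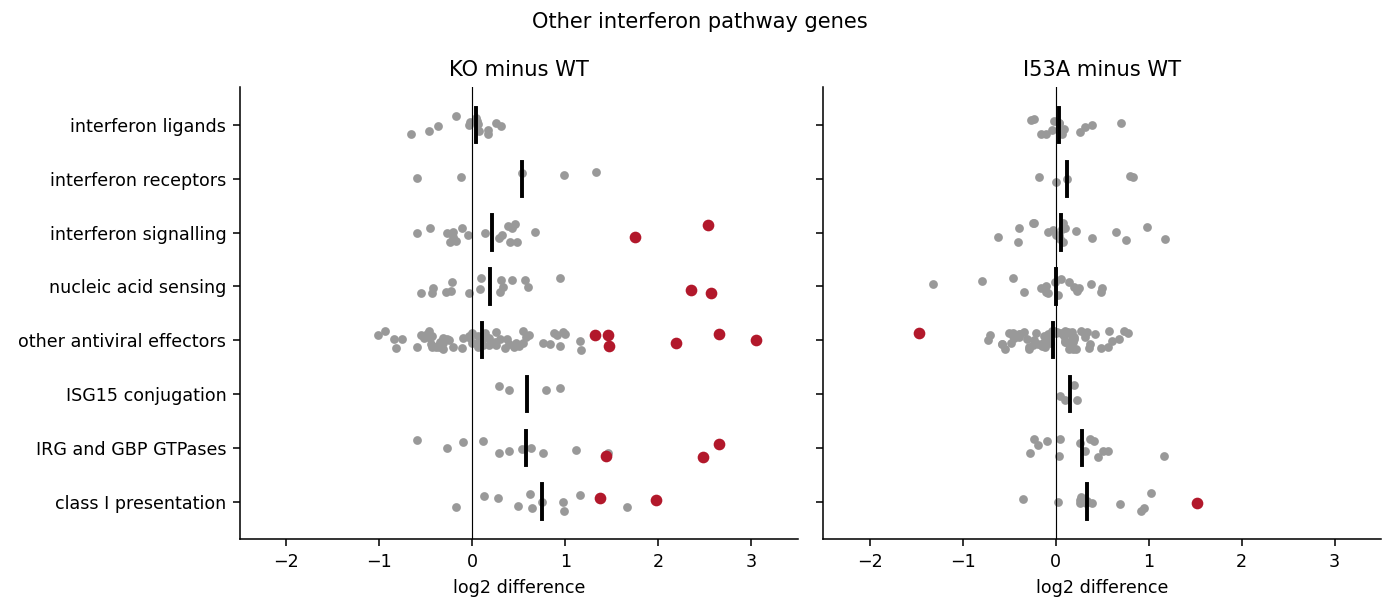
Log2 difference (horizontal axis) of each tested gene in 8 interferon lists, KO minus WT and I53A minus WT, the 10 effector genes left out. Red points were called, grey points were not, and black bars are list medians, from 0.05 for ligands to 0.75 for class I presentation in KO minus WT.

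Rnf2 itself had 1 probe, at 7.35, 7.92 and 8.08 in KO, 8.69, 9.10 and 8.59 in I53A, and 8.32, 8.27 and 8.47 in WT (KO minus WT −0.57, limma adjusted p 0.288). Its position along the transcript was not used here, so whether it reads the deleted exon is unknown and it checks no label. All 9 mESC markers tested were above background on every array, and 1 (Sox2) was called lower in KO than in WT. Over all genes 1.17% were called lower. At an unadjusted limma p under 0.05, 4 of the 9 were higher and 2 lower in KO, and the list median was 0.11. Markers of other cell states also moved in KO against WT, with 6 of 10 primitive endoderm, 3 of 10 trophoblast and 4 of 6 2-cell stage genes called higher. Over all genes 2.92% were called higher. The trophoblast list had a median difference of −0.07, with 4 of its genes lower at an unadjusted limma p under 0.05, whereas the medians were 1.69 for primitive endoderm and 3.36 for 2-cell genes. In the same comparison 0 of 12 macrophage and blood genes (1 lower at an unadjusted limma p under 0.05) and 1 of 12 fibroblast genes (Thy1, with 3 others lower at that p and a list median of −0.24) were called higher. The mean log2 signal of the primitive endoderm list was 5.89 to 6.32 on KO arrays, 4.93 to 5.22 on I53A arrays and 4.67 to 4.76 on WT arrays, and that of the macrophage and blood list 5.30 to 5.46, 5.28 to 5.52 and 5.09 to 5.52. The part of other cell states in the effector genes' differences was not tested, and in bulk RNA fewer cells of a type and less RNA per cell cannot be told apart.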

How the data were processed

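The authors hybridised Cy3-labelled cRNA of 9 samples to Agilent SurePrint G3 mouse arrays. The deposited scan files hold spot intensity on a linear scale, background-subtracted by Agilent Feature Extraction 11.5.1.1, and the deposited series table holds log2 intensities of 30170 probes, quantile normalised by the authors (mm10). The table's own fold changes and p-values, with the group means, were not used. Its sample columns name a group and no replicate.

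Groups and replicate numbers came from sample titles, although another label numbers all 3 KO samples 1. Outlier-flagged and control spots were left out, repeated probes were averaged, and log2 intensities were quantile normalised over 55681 non-control probes (R 4.3.3, limma 3.58.1). Probes of the series table were tested in 1 linear model (6 residual degrees of freedom) with Benjamini-Hochberg adjustment over all 30170. A gene was represented by its brightest probe, and named through a RefSeq accession or an Ensembl gene shared with a probe named that way. Calls used an adjusted p under 0.05 and a 2-fold change. The scan files hold no mean spot signal, so the normexp alternative (offset 50) used the median spot and background signals. From 38.5% to 50.3% of probes per array were well above background, and this share and the 3 arrays in each group limit the precision. The model was tested on simulated data.

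The members and all gene lists were chosen with earlier results of these data known. Named genes are all members, the called genes of the other interferon lists (at most 6 a direction), each list's brightest gene, Rnf2, and the 8 genes most like the members' mean profile. Alternatives were other scalings, filters, blocks, slides, probes and left-out arrays.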

Additional observations from a re-analysis of the deposited data

How the results depend on the processing

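In the order KO against WT, then I53A against WT, then KO against I53A, the fit of the report called 3.84%, 0.328% and 1.33% of all probes, 6, 0 and 6 effector genes, and 15, 2 and 8 genes of the other interferon lists. With 75th percentile scaling I53A against WT gave 0.146% of probes and 0 list genes. With normexp the probes called were 1.08%, 0.152% (25 higher and 21 lower, against 71 and 28 in the report) and 0.438%, and the list genes 5, 1 and 2. The effector genes called there were 4, 0 and 4, with Oas2 and Oasl2 lost in both KO comparisons. With dim probes left out, 8.15%, 1.71% and 3.72% of the probes kept were called. That setting called 1 effector gene (Rtp4) in I53A against WT and 13 list genes in KO against I53A. Over all non-control probes 2.39% were called in KO against WT and 0.198% in I53A against WT, and there, as with slide as a block, 1 list gene was called in I53A against WT. Within slide 1, with 2 arrays a group, 1.1%, 0.00663% and 0.209% of probes and 5, 0 and 2 list genes were called. The effector genes called there were 4, 0 and 1. Oas2 and Oasl2 were lost in KO against WT, and only Ifi27 was kept in KO against I53A.

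Deviations of same-numbered arrays correlated from −0.37 to 0.34, with 4 of 9 pairs above 0. Replicate numbers did not pair KO arrays with the others, where r ran from −0.37 to 0.12. Same-numbered I53A and WT arrays also shared a slide row, and had r of 0.34, 0.07 and 0.18. For these, number and row cannot be told apart. With the replicate block, 0.0829% of probes and 0 list genes were called in I53A against WT and 0.643% of probes in KO against I53A, and the effector genes called numbered 6, 0 and 5. In 8 of 9 pairs, arrays of 1 slide row deviated together (r from −0.06 to 0.39). With slide and row as a block, chosen after seeing the data, I53A against WT gave 0.123% of probes and 0 list genes.

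Leaving out 1 array gave 2.02% to 3.66%, 0.0729% to 0.288% and 0.60% to 1.08% of probes, 6, 0 and 5 to 6 effector genes, and 9 to 18, 0 to 2 and 5 to 8 list genes. The lowest list count in KO against WT, 9, came without WT 3, and the 5 in KO against I53A came without KO 2, KO 3 or I53A 1. Of 594 recomputed single-gene differences of the effector genes 569 moved by less than 1 SD and 25 by more, and none of the called ones changed sign. The cause of these shifts was not tested. Signals of Oas2, Ifit1 and, outside KO, Oasl2 lay at or near background, which limits their folds.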
